A study of Mus musculus with 6 samples.

Results

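The GDNF family receptors and ligands are a set of 8 genes, Gfra1, Gfra2, Gfra3, Gfra4, Ret, Gdnf, Nrtn and Artn, taken by gene symbol from an RNA sequencing study of 16000 genes. They were chosen by the measured difference between knockout and wild-type counts of Gfra2, Gfra1 and Gdnf. Of the 8 genes, 5 were analysed (Gfra1, Gfra2, Gfra3, Gdnf and Artn). Gfra4, Ret and Nrtn were not analysed here. The study compared 3 libraries of RAI16 knockout NIH3T3 cells (KO) with 3 libraries of wild-type NIH3T3 cells (WT), all from cultures without serum. NIH3T3 is an established mouse embryonic fibroblast line. The labels give no clone, no lesion and no other allele for the knockout, and they do not say whether replicates were separate cultures, so the spread between libraries may be technical.

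GDNF family ligands are secreted growth factors. Each binds a co-receptor of the GFR alpha family, which is held to the outer membrane by a lipid anchor, and the pair then activates the receptor tyrosine kinase RET. GDNF prefers the product of Gfra1, neurturin (Nrtn) that of Gfra2 and artemin (Artn) that of Gfra3. The pathway is best known for guiding the ureteric bud of the kidney and for the development of enteric and other peripheral neurons, with GDNF made by the surrounding mesenchyme. GDNF bound to a co-receptor can also act through the adhesion molecule NCAM without RET.

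Since that contrast chose the family, all differences of its members are given as descriptions without a test. Total counts ran from 17805417 to 18368760 in KO libraries and from 16741607 to 17482451 in WT libraries. The first principal component of log2 CPM, 88.1% of the variance, separated the groups, and the next, 5.90%, set KO replicate 2 apart from the other KO libraries. The targeted gene, listed as Fam160b2, had 410, 394 and 390 counts in KO libraries and 440, 375 and 411 counts in WT libraries, so its transcript was still present in the libraries labelled KO. Its log2 fold change of KO over WT was −0.12 ± 0.075 (SE; adjusted p = 0.184 over all genes, edgeR's quasi-likelihood test). Counts of a whole gene cannot show whether a short lesion is in it.

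RefSeq promoter entries were used for Gdnf (2 starts), Gfra1 and Artn. The 250 bases before the first start of Gdnf and the start of Gfra1 are shown because the transcripts of both genes were lower in every KO library. They are on build GRCm38.p6, another build than that of the counts, and run 5′ to 3′ on the strand of the gene. Capitals mark motif matches, searched on both strands. The motifs were the full cAMP response element with letters TGACGTCA, its short form with letters TGACG, the promoter element known as the GC box with letters GGGCGG, the start-site element with letters TATAAA, and the core bound by transcription factors of the ETS family, with letters CCGGAAG. Each full element also holds the short form.
Gdnf, chr15:7809798-7810047, plus strand: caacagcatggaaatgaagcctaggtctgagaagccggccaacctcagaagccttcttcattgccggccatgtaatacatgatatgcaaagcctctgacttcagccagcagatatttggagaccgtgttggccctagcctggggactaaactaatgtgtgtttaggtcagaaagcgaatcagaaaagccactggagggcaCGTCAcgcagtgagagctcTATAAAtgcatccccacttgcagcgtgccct
Gfra1, chr19:58455399-58455648, minus strand: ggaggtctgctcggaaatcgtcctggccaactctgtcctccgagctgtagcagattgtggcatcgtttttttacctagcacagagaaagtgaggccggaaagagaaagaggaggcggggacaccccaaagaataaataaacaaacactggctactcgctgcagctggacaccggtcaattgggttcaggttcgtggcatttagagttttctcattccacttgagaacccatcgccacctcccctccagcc
The Gdnf window held 1 short form, beginning 50 bases before the start, and 1 start-site element, beginning 31 bases before it. Among the 32851 RefSeq promoter windows of this length, 17.8% held the short form and 12.4% the start-site element. The window before the second start of Gdnf, not printed, held no match to any of the 5 motifs and 14 CpG dinucleotides. The Gfra1 window held no match to any of the 5 motifs, which says only that these letters are not in it. The full element was in 1.55% of all windows, the GC box in 32.7% and the ETS core in 6.91%. The CpG dinucleotide occurred 7 times in the printed Gdnf window and 10 times in the Gfra1 window, beside a median of 6 over all windows.

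Gfra2, the co-receptor gene for neurturin, was close to silent in KO libraries and well expressed in WT libraries. It had 5, 9 and 4 counts in KO replicates 1, 2 and 3, against 1492, 1416 and 1441 counts in WT replicates 1, 2 and 3. Scaled to the library (CPM, taken on the TMM-adjusted total), it lay at 0.271, 0.490 and 0.225 CPM in KO, against 86.2, 84.9 and 82.8 CPM in WT. Every KO library was below every WT library by more than 100-fold.
The mean was 0.329 ± 0.142 CPM in KO and 84.6 ± 1.74 CPM in WT (SD, n = 3 each), a fitted log2 fold change of −7.97 ± 0.14 (SE). This SE, taken from the F statistic, is too small for a KO level of 18 reads. DESeq2 gave −8.01 ± 0.35 (SE). The summed counts, 18 in KO and 4349 in WT, gave a scaled ratio of WT to KO of 256 with a 95% interval from 162 to 433 (exact binomial, counting error only, since reads without molecular identifiers are not independent molecules). The KO level of Gfra2 rests on few reads, and of these 9 of 18 were in KO replicate 2. Without that library the fitted log2 fold change was −8.37.
The scatter of Gfra2 between WT libraries (2.06% of the mean) was below the 2.63% that counting alone gives at this depth. In KO the scatter was 43.1%, where counting alone gives 40.8%. Ranked by fitted fold change, Gfra2 was number 19 from the lowest of 11972 genes tested.

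Gfra1, the preferred co-receptor gene of GDNF, was lower in KO but still detected. It had 65, 58 and 76 counts in KO replicates 1, 2 and 3, against 307, 285 and 304 counts in WT replicates 1, 2 and 3. In CPM it lay at 3.53, 3.16 and 4.28 in KO libraries and at 17.7, 17.1 and 17.5 in WT libraries. The groups did not overlap, and in each KO library Gfra1 was far below its level in any WT library.
The mean was 3.66 ± 0.570 CPM in KO and 17.4 ± 0.331 CPM in WT (SD, n = 3 each). On the log2 scale KO differed from WT by −2.25 ± 0.12 (SE; 95% interval −2.52 to −1.98), so KO cells held 21.0% of the WT level. The annotated gene Gm46650 overlaps Gfra1. It had 0 counts in KO and 3 in WT. The long non-coding RNA genes Gm10007, which overlaps Gfra1, and Gm34588, which overlaps Gfra2, are not among the 16000 genes counted. Since the strand setting of the counting is not given, reads of overlapping genes cannot be told apart.

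Gfra3, the artemin co-receptor gene, was at the limit of detection. It had 0, 0 and 1 counts in KO replicates 1, 2 and 3 and 0 counts in each WT library. A count of 0 allows a level of up to 0.180 CPM in a WT library (3 counts of the smallest scaled total), so no difference was detectable at this depth and no fold is given. The gene did not pass the filter on low counts.

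Among the ligands, Gdnf was the abundant one, and it was moderately lower in KO. It had 1405, 1232 and 1311 counts in KO replicates 1, 2 and 3, against 2091, 2047 and 2179 counts in WT replicates 1, 2 and 3. In CPM it lay at 76.2, 67.1 and 73.8 in KO libraries and at 121, 123 and 125 in WT libraries. The groups did not overlap, and KO replicate 2 was the lowest.
The mean was 72.4 ± 4.72 CPM in KO and 123 ± 2.17 CPM in WT (SD, n = 3 each). The difference on the log2 scale was −0.76 ± 0.064 (SE; 95% interval −0.91 to −0.62), which leaves 58.9% of the WT level. The scatter between KO libraries, 6.52% of the mean, was above the 2.76% of counting alone. Without KO replicate 2 the log2 fold change was −0.71.

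Artn, the ligand of the Gfra3 product, was barely detected in either group. It had 3, 3 and 3 counts in KO libraries and 3, 1 and 2 counts in WT libraries, and the ranges met at 3 counts. The 9 counts in KO and 6 in WT gave a scaled ratio of KO to WT of 1.41 with a 95% counting interval from 0.449 to 4.83. A difference of this size was not detectable at this depth, and the gene did not pass the filter. The persephin gene Pspn, the other ligand of the family and no member of the set (named after its values were seen), had 0, 1 and 0 counts in KO libraries and 1, 1 and 0 counts in WT libraries.

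**Figure D1:**
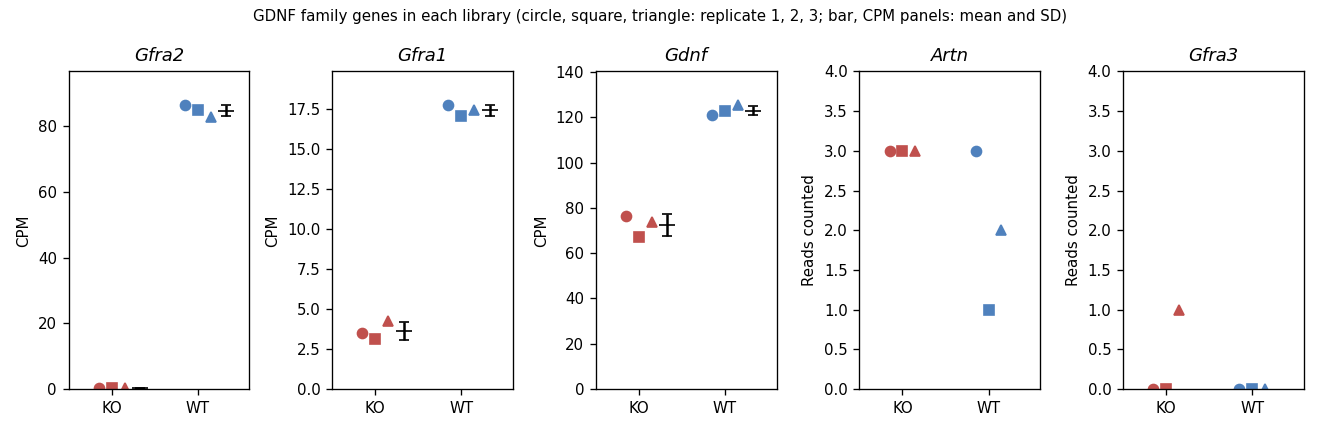
Values of the 5 analysed genes in each library, KO left of WT, as CPM for Gfra2, Gfra1 and Gdnf and as reads counted for Artn and Gfra3; circles, squares and triangles are replicates 1, 2 and 3, and the bars in the CPM panels are the mean and SD. Gfra2 is at 0.225 to 0.490 CPM in KO and at 82.8 to 86.2 CPM in WT, while Artn and Gfra3 do not exceed 3 reads in any library.

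Thus in the 3 members that passed the filter on low counts, Gfra1, Gfra2 and Gdnf, each KO library lay below each WT library. Of the 11972 genes tested, 29.2% were called lower in KO (adjusted p under 0.05), 6.53% were called at least 2-fold lower, and 33.5% had every KO library below every WT library. In the other direction 30.5% were called higher, 4.32% were called at least 2-fold higher and 34.1% had every KO library above every WT library. Nothing is read from the count of members, since this contrast chose them. In these bulk samples, fewer cells that express a gene and less RNA per cell cannot be told apart.

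Compared per length, Gdnf was close to Gfra2 in WT but 7.99 times Gfra1, its preferred co-receptor transcript. In KO it was far above both. The deposited FPKM values fit one length per gene (3487 bases for Gfra2, 5510 for Gfra1 and 4867 for Gdnf), and levels between genes are given on that scale. In KO libraries the order of mean FPKM was Gdnf, Gfra1, Gfra2, Artn and Gfra3. In WT libraries it was Gdnf, Gfra2, Gfra1, Artn and Gfra3.
Gdnf lay at 14.9 ± 0.911 FPKM in KO and at 25.1 ± 0.451 FPKM in WT. Gfra2 lay at 0.0948 ± 0.0414 FPKM in KO and at 24.2 ± 0.490 FPKM in WT. Gfra1 lay at 0.665 ± 0.0998 FPKM in KO and at 3.15 ± 0.0576 FPKM in WT (SD, n = 3 each for all).
In WT, Gdnf and Gfra2 were neighbours in this order and nearly equal: Gdnf was 1.00, 1.04 and 1.08 times Gfra2 in WT replicates 1, 2 and 3, and the lowest Gdnf value (24.7 FPKM) was close to the highest Gfra2 value (24.6 FPKM). In KO, the lowest Gfra2 value (0.0644 FPKM) was above the highest Artn value (0.0487 FPKM), but these single values rest on 4 reads of Gfra2 and 3 of Artn. The other neighbours down to Artn did not overlap in either group.
Among all genes tested, Gdnf stood at percentile 62.1 of mean FPKM in KO and at percentile 77.2 in WT. Gfra2 stood at percentile 1.90 in KO and 76.2 in WT, and Gfra1 at percentile 9.24 in KO and 23.7 in WT.

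The make-up of the co-receptor pool was reversed between the groups. The summed FPKM of Gfra1, Gfra2 and Gfra3 was 0.720, 0.721 and 0.867 in KO replicates 1, 2 and 3, against 27.8, 27.3 and 26.8 in WT replicates 1, 2 and 3. Gfra1 made up 89.2%, 80.3% and 89.3% of it in KO replicates 1, 2 and 3, and 11.5%, 11.3% and 11.8% in WT replicates 1, 2 and 3. Gfra2 made up 10.8%, 19.7% and 7.43% in KO libraries and 88.5%, 88.7% and 88.2% in WT libraries.
So Gfra1, though lower in KO in absolute level, was the main co-receptor transcript in each KO library and Gfra2 in each WT library. The single Gfra3 read in KO replicate 3 came to 3.24% of that library's pool, and Gfra4 is not in these sums. The ratio of Gdnf to the summed co-receptor FPKM was 21.8, 19.3 and 17.4 in KO replicates 1, 2 and 3, against 0.888, 0.919 and 0.956 in WT replicates 1, 2 and 3. Set against its preferred co-receptor alone, Gdnf was 22.7 ± 2.74 times Gfra1 in KO and 7.99 ± 0.238 times Gfra1 in WT (SD, n = 3 each).

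**Figure D2:**
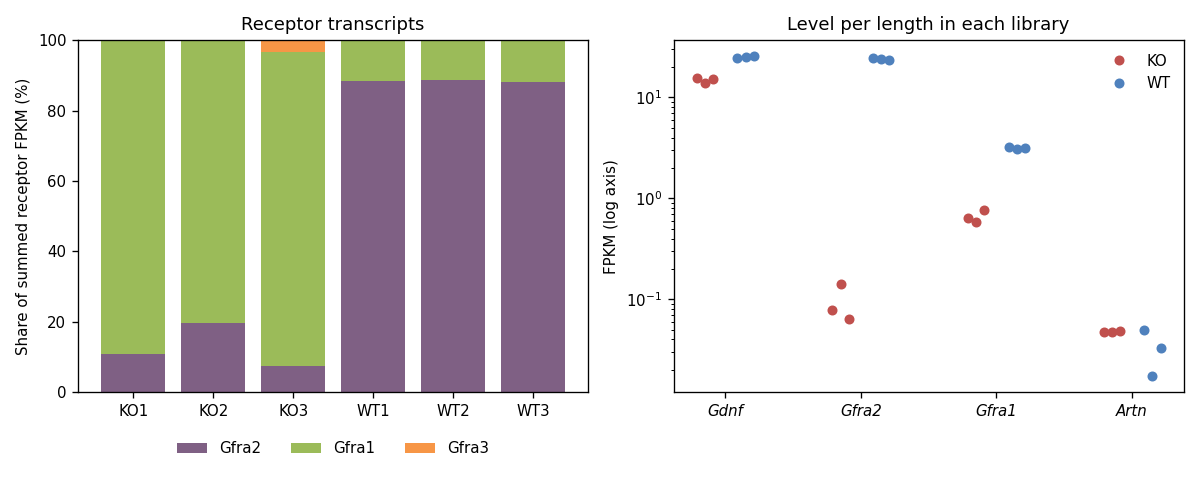
Left, share of Gfra2, Gfra1 and Gfra3 in their summed FPKM for KO replicates 1 to 3 (KO1 to KO3) and WT replicates 1 to 3 (WT1 to WT3); right, FPKM of 4 members on a log axis, 1 point per library, KO left of WT within each gene. Gfra1 holds 80.3% to 89.3% of the pool in KO libraries and 11.3% to 11.8% in WT libraries, and Gdnf and Gfra2 lie side by side in WT only.

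Genes with the pattern most like each strongly lower member were taken by the root mean square difference in centred log2 CPM over the 6 libraries. Nearest to Gfra2 were Ndn, the imprinted necdin gene (0.099 log2 units), Actr3b, a gene for an actin-related protein (0.36), and Bnc1, a zinc-finger gene (0.36). Ndn had 1 count in KO and 1292 in WT, Actr3b had 11 in KO and 4780 in WT, and Bnc1 had 8 in KO and 2672 in WT. This measure adds a prior count of 2, which brings genes with counts near 0 together.
Nearest to Gfra1 were Ptprm, a receptor-type tyrosine phosphatase gene (0.072), Pcdhgb2, a clustered protocadherin gene (0.088), and LOC100041057 (0.092). Ptprm lay at 8.69 ± 1.40 CPM in KO and at 43.2 ± 0.586 CPM in WT (SD, n = 3 each). Genes of the protocadherin cluster share exons, so the Pcdhgb2 count is uncertain.

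The place of Gfra2 in the genome is close to the targeted gene. In the gene order of the RefSeq table (GRCm38.p6), both are on chromosome 14, with 5 protein-coding genes between them, all of which were tested: Dmtn, Fgf17, Npm2, Xpo7 and Dok2. None of the neighbours was as low as Gfra2. Of the 10 tested genes on each side, 16 were called lower in KO and 0 higher, where 29.2% of all genes tested were called lower (edgeR's quasi-likelihood test, adjusted p under 0.05). DESeq2 also called 16 lower and 0 higher. The targeted gene Fam160b2 is itself 1 of these neighbours and was not called in edgeR's test.
All 20 neighbours had a fitted log2 fold change below 0, as had 49.7% of all genes tested, with a median of −0.70 and values from −3.23 (Htr2a) to −0.02 (Med4), the ends of the range being named after their values were seen. Med4 turned above 0 when KO replicate 3 or WT replicate 1 was left out, which left 19 of 20 below 0. Fgf17, an FGF ligand gene, lay at 0.457 ± 0.107 CPM in KO and at 1.01 ± 0.288 CPM in WT (log2 fold change −1.13 ± 0.35, adjusted p = 0.0216, edgeR). Npm2, a histone chaperone gene of the oocyte, had a log2 fold change of −0.89 ± 0.28 (adjusted p = 0.0216, edgeR).
Xpo7, a nuclear transport receptor gene, fell by 0.37 ± 0.11 on the log2 scale (adjusted p = 0.0141, edgeR). Dok2, which like Dok4 encodes a docking protein of tyrosine kinases, lay at 0.402 ± 0.108 CPM in KO and at 0.642 ± 0.0149 CPM in WT and was not called (adjusted p = 0.134, edgeR). Dmtn, a cytoskeletal gene, was not called either (adjusted p = 0.182, edgeR).
On the far side, Fndc3a fell to 179 ± 29.4 CPM in KO, against 401 ± 15.5 CPM in WT. Rcbtb2 fell to 27.3 ± 1.01 CPM in KO, against 45.8 ± 2.04 CPM in WT. The retinoblastoma gene Rb1 fell to 26.7 ± 4.04 CPM in KO, against 38.0 ± 2.07 CPM in WT (SD, n = 3 each). Adjusted p values of these 3 genes in edgeR's test were 2.85e-05, 1.91e-05 and 0.00307. The fall of Gfra2 was thus larger than that of each of the 20 genes around it, and the part of the shared shift in it was not tested.

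Around the other members the neighbours lay on both sides of 0. Of 20 neighbours each, 16 were below 0 around Gfra1, 15 around Gdnf, 15 around Gfra3 and 6 around Artn. The share below 0 over all genes tested was 49.7%. Over all genes tested 30.5% were called higher and 29.2% lower, and whether surroundings differ between members was not tested. Of the 20 neighbours of Gfra1 on chromosome 19, 2 were called higher and 6 lower in KO, with a median log2 fold change of −0.11. The 3 nearest on one side, Atrnl1, Trub1 and Fam160b1 (a relative of the targeted gene), had log2 fold changes of −0.05, −0.05 and −0.00061 and none was called. On the other side Hspa12a and Eno4 were called lower, with log2 fold changes of −0.77 ± 0.21 and −1.20 ± 0.36 (adjusted p = 0.0104 and 0.0168, edgeR), and Shtn1 was not called.
Without KO replicate 2 the count of higher neighbours of Gfra1 was 4, and without WT replicate 2 it was 1. Of the 20 neighbours of Gdnf on chromosome 15, 2 were called higher and 10 lower, with a median of −0.32. The cytokine receptor genes Lifr and Osmr on one side had log2 fold changes of −1.75 ± 0.13 and −0.43 ± 0.080 (adjusted p = 7.57e-06 and 0.00153, edgeR), and Egflam was not called. Wdr70, Nup155 and Cplane1 on the other side were not called. The count of higher neighbours of Gdnf was 3 without KO replicate 2 and 1 without any other single library. Of 20 neighbours each, 10 were called higher and 3 lower around Artn, and 3 higher and 9 lower around Gfra3.

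**Figure D3:**
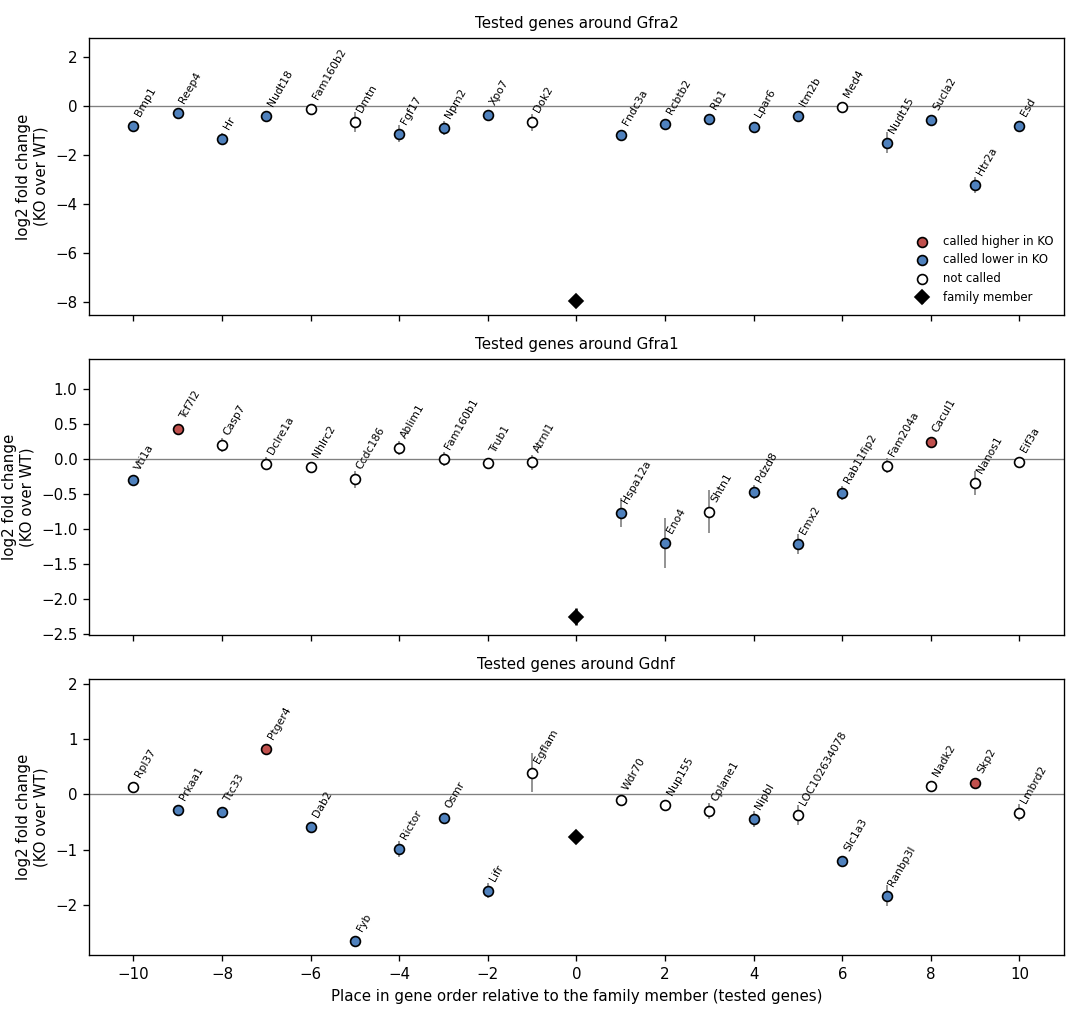
log2 fold change (KO over WT, with SE) of the 10 tested genes on each side of Gfra2, Gfra1 and Gdnf, in gene order without distances; diamonds are the family members, filled circles are genes called higher or lower, open circles are genes not called. All 20 genes around Gfra2 lie below 0 and above Gfra2 itself at −7.97, and the targeted gene Fam160b2 is 1 of them. Genes around Gfra1 and Gdnf lie on both sides of 0.

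Genes that work with the family moved in both directions. A list of 74 such genes, written with earlier results of these data known, had 55 tested, of which 19 were called higher and 23 lower in KO. That is 76.4% called, beside 59.6% of all genes tested, with a median log2 fold change of −0.01 beside 0.0028 over all genes. Most changes were small, and the strong ones are named by role below with edgeR's adjusted p.

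Of 3 tested genes for related ligands and receptors, 1 was higher and 2 were lower, where 59.6% of all genes tested were called. Ncam1, the adhesion molecule that can take up the GDNF signal without RET, rose to 131 ± 11.7 CPM in KO, against 85.4 ± 3.13 CPM in WT (a log2 difference of 0.62 ± 0.075, adjusted p = 1.31e-04; SD over 3 libraries a group here and below). Sdc3, a heparan sulphate proteoglycan that binds matrix-bound GDNF family ligands, fell by 0.53 ± 0.080 on the log2 scale (adjusted p = 4.53e-04). Gas1, a membrane protein related to the GFR alpha family, fell to 577 ± 16.2 CPM in KO, against 859 ± 37.1 CPM in WT (adjusted p = 4.00e-05).
Of these related genes, then, Ncam1 was higher, and Sdc3 and Gas1 were lower. All 7 tested genes of heparan sulphate synthesis and editing, on which GDNF signalling relies, were called, 3 higher and 4 lower. The share called over all genes tested was 59.6%. The chain polymerase genes split, with Ext1 at −0.39 ± 0.051 and Ext2 at 0.29 ± 0.061 (adjusted p = 2.15e-04 and 0.00334).
The sulphotransferase genes Ndst1, Hs6st1 and, named after its value was seen, Hs2st1 fell by 0.52 ± 0.12, 0.28 ± 0.060 and 0.23 ± 0.055 on the log2 scale. Sulf2, which removes sulphate at the cell surface, rose by 1.23 ± 0.16 (adjusted p = 1.66e-04). Its relative Sulf1, also named after its value was seen, had 15, 12 and 14 counts in KO libraries and 0 in each WT library, which makes it at least 12.9-fold higher in KO (against 3 counts over the WT group, without the counting error of the KO reads).

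RET adaptors and effectors counted 9 higher and 4 lower among 19 tested. That is 68.4% called, beside 59.6% of all genes tested. Dok4, a docking protein of RET, rose to 9.19 ± 0.351 CPM in KO, against 4.10 ± 0.162 CPM in WT (a log2 difference of 1.16 ± 0.11, adjusted p = 3.18e-05). The adaptor genes Irs2 and Shc1 rose by 0.67 ± 0.094 and 0.54 ± 0.057. The exchange factor gene Sos1, the docking protein gene Gab2 and the kinase gene Fyn fell by 0.63 ± 0.13, 0.54 ± 0.095 and 0.50 ± 0.061.
Brakes on RET counted 2 higher and 4 lower among 9 tested, which is 66.7% called, beside 59.6% of all genes tested. Spry1, which limits RET signalling in the kidney, rose to 3.67 ± 0.589 CPM in KO, against 0.990 ± 0.192 CPM in WT (log2 fold change 1.88 ± 0.23, adjusted p = 1.35e-04), while its relative Spry2 fell by 0.63 ± 0.068 (adjusted p = 6.27e-05). Of the phosphatase genes, Ptprf rose by 0.78 ± 0.15, and Ptprj had 2 counts in KO and 242 in WT, a scaled ratio of WT to KO of 128 (95% counting interval 35.2 to 1066). The ubiquitin ligase gene Cblb fell by 0.31 ± 0.095 (adjusted p = 0.0184).

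Genes that RET signalling switches on in the ureteric bud, many of which also answer to FGF and ERK signalling, counted 1 higher and 4 lower among 6 tested, beside 30.5% higher and 29.2% lower over all genes tested. Etv4, a transcription factor of the ETS family, fell to 38.7 ± 2.36 CPM in KO, against 68.5 ± 2.59 CPM in WT (log2 fold change −0.83 ± 0.066, adjusted p = 1.05e-05). Etv5, its relative, fell to 58.6 ± 6.36 CPM in KO, against 104 ± 2.74 CPM in WT (adjusted p = 3.37e-05). Met, the receptor of hepatocyte growth factor, rose by 0.58 ± 0.098 (adjusted p = 8.70e-04). Dusp6, named after its value was seen, fell by 0.37 ± 0.057.

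Genes that set where Gdnf and Ret are made in the embryo counted 3 higher and 5 lower among 11 tested. That is 72.7% called, beside 59.6% of all genes tested. Grem1, the BMP antagonist that releases the kidney bud for GDNF, had 5 counts in KO and 8554 in WT, a scaled ratio of WT to KO of 1816 (95% counting interval 778 to 5593). Eya1, a co-activator of Gdnf transcription, fell to 2.51 ± 0.213 CPM in KO, against 12.0 ± 0.215 CPM in WT (log2 fold change −2.25 ± 0.12, adjusted p = 8.60e-07).
The pair of matrix adhesion genes that supports Gdnf in the kidney split: the integrin gene Itga8 rose to 33.5 ± 3.70 CPM in KO, against 7.98 ± 1.33 CPM in WT (adjusted p = 2.68e-06), and its ligand gene Npnt fell to 4.24 ± 1.35 CPM in KO, against 10.9 ± 0.420 CPM in WT (adjusted p = 2.58e-04). Gata3, which drives Ret in the kidney, rose by 1.79 ± 0.23 from a low level, at 2.57 ± 0.277 CPM in KO and 0.740 ± 0.0949 CPM in WT. The forkhead gene Foxc1 rose by 0.55 ± 0.067.

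**Figure D4:**
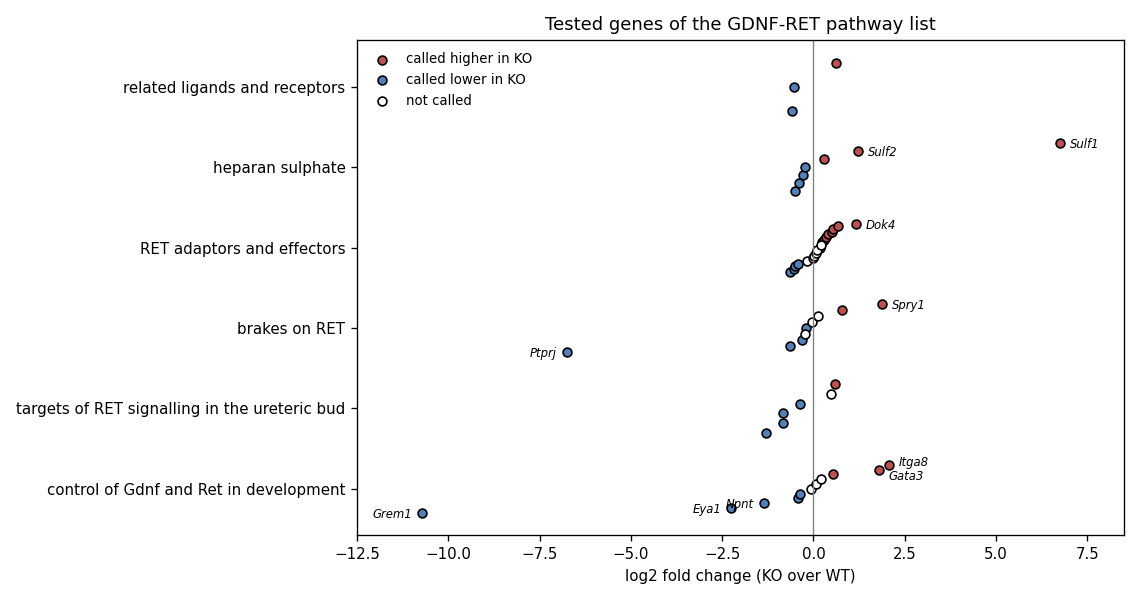
Fitted log2 fold change (KO over WT) of the 55 tested genes of the pathway list by role, 1 point per gene, coloured by call; some genes at least 2-fold changed are named. Most points lie near 0, with Grem1 and Ptprj far to the left and Sulf1, which had 0 counts in WT, far to the right at a value that depends on the prior count.

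Markers were used to check the cell type and what else the cultures could hold. All 11 fibroblast markers were detected, with a summed level of 21806 to 24986 CPM in KO libraries and 27105 to 27625 CPM in WT libraries. Of them 4 were called higher (Col1a1, Col1a2, Thy1 and Vim) and 3 lower (Fn1, Dcn and Pdgfrb), and Fn1 alone lay at 9196 CPM in KO and 13984 CPM in WT. Schwann cells and neurons also express GDNF family receptors. Of 6 Schwann cell and neural crest markers analysed, 2 passed the filter, both lower in KO, and the summed level of all 6 was 2.82 to 3.80 CPM in KO libraries and 11.3 to 12.1 CPM in WT libraries. These markers moved with Gfra2, and their part in its difference was not tested. Their defining gene Sox10 had 0 counts in KO and 1 in WT, and Ngfr likewise had 0 in KO and 1 in WT.
The 6 neuronal markers summed to 2.76 to 4.99 CPM in KO libraries and 5.70 to 6.42 CPM in WT libraries. Leukocyte, epithelial and endothelial markers each summed to less than 6 CPM in every library, with each KO sum above each WT sum. In each of these classes 1 marker was called, and it was higher in KO: Cd68 (mean 4.95 CPM in KO and 3.46 CPM in WT), Krt8 (4.35 CPM in KO and 1.05 CPM in WT) and Cdh5 (1.76 CPM in KO and 0.216 CPM in WT). The other markers detected in these classes did not pass the filter and went both ways. Ptprc had 6 counts in KO and 13 in WT, Cdh1 had 20 and 32, and Krt18 had 2 and 5. Pecam1 had 33 counts in KO and 9 in WT, and Kdr had 7 and 0. Muscle markers stood out in KO replicate 2, at 62.9 CPM, of which Acta1 gave 1071 counts, against 8 counts at most in any other library. The part of this library's difference in the values of the family was not tested. Without it the log2 fold changes were −8.37 for Gfra2, −2.16 for Gfra1 and −0.71 for Gdnf, the mean KO levels were 0.0712, 0.708 and 15.4 FPKM for the same genes, and Gfra2 made up 9.13% and Gfra1 89.2% of the KO co-receptor pool.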

How the data were processed

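Messenger RNA of 6 libraries (TruSeq Stranded mRNA kit, per the labels' protocols) was analysed from 2 deposited tables. One holds raw read counts per gene. The other holds FPKM, which equals the deposited count divided by the library total and by 1 length per gene. The authors' tools, per the submitters' processing notes, include HISAT2, HTSeq, Cufflinks, Trimmomatic and DESeq, and the build is GRCm39. For tool versions, annotation and strand setting the sources used here give nothing. Columns of other samples numbered 0.

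Counts were filtered with edgeR's filterByExpr (11972 of 16000 genes kept), scaled by TMM and tested with edgeR 4.0.16 (quasi-likelihood, R 4.3.3), group only, with Benjamini-Hochberg adjustment over all genes tested. Standard errors were taken from the F statistic (|log2 fold change| over its root), which makes that of Gfra2 too small. The script was tested on simulated counts. Neighbours came from RefSeq gene order (GRCm38.p6), with 15905 genes matched by gene number. DESeq2 1.42.0, other scalings and filters, a replicate block and each library left out were alternatives.

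The members and lists were chosen with earlier results of these data known. By rule, the text names all members, the 3 genes most like each member changed at least 2-fold, the 3 largest called rises and falls of each pathway role with a mean of at least 1 CPM, and the 3 nearest neighbours on each side; others are marked, and 1 gene the rule names is not reported here. Replicate numbers did not pair the libraries.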

Additional observations from a re-analysis of the deposited data

How the results depend on the processing

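Of 217 alternative values, 203 stayed within the spread between replicates or within 1.5 times the count, and none of these changed direction. Among the single neighbours of Gfra2, Med4 turned above 0 without KO replicate 3 or WT replicate 1. Over all alternatives that leave no library out, the log2 fold change of Gfra2 ran from −8.01 (DESeq2) to −7.96 (library totals only). A filter of at least 10 counts in every library removed Gfra2 and so gave no value for it. Leaving out single libraries gave −8.37 to −7.77 for Gfra2, −2.38 to −2.16 for Gfra1 and −0.80 to −0.71 for Gdnf. With 5 instead of 10 genes on each side, which counts fewer genes by construction, 8 neighbours of Gfra2 and 5 of Gdnf were called lower, and 0 of Gfra1 and 0 of Gdnf higher. With single libraries left out, 1 to 4 neighbours of Gfra1 and 1 to 3 of Gdnf were called higher, and DESeq2 called 1 higher around Gdnf. With counts in place of FPKM, which weights the longer Gfra1 more, Gfra1 made up 17.1% and Gfra2 82.9% of the receptor counts in WT. The replicate number was no pairing (correlations of same-numbered libraries from −0.094 to 0.022), and the replicate block gave 3371 genes higher and 3321 lower, against 3646 and 3490 without it, and 18 and 23 in the pathway list, against 19 and 23. Depth limits Artn, Gfra3 and the KO level of Gfra2.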
